A study of Mus musculus with 3 samples.

Results

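The lysyl oxidases and lysyl hydroxylases are 2 enzyme families that prepare collagen for covalent crosslinking, and the oxidases also act on elastin. The 8 genes were taken by symbol from the 15554 genes of the table. They are the 5 lysyl oxidases *Lox*, *Loxl1*, *Loxl2*, *Loxl3* and *Loxl4*, and the 3 lysyl hydroxylases *Plod1*, *Plod2* and *Plod3*. Transcripts were measured by RNA-seq in NIH3T3, an established line of mouse embryonic fibroblasts kept in serum-free IMDM. The 3 groups were cells left unstimulated (CTRL), cells given GDF15 at 100 ng/mL and cells given TGF-β at 4 ng/mL. Each was harvested after a further 24 h. GDF15 is a distant member of the TGF-β superfamily, and the question was how its effect on fibroblasts compared with that of TGF-β. Each group was 1 stranded mRNA library made from pooled RNA, so no value has a replicate error and no difference has a p-value.

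Of the 8 genes, *Lox* alone changed by more than 2-fold. It rose 3.71-fold after GDF15 and 5.79-fold after TGF-β and made up 97.2% and 99.5% of the increase in summed lysyl oxidase FPKM. *Plod1* and *Plod2* were 21.7% to 42.0% higher after stimulation, whereas *Loxl1*, *Loxl3* and *Plod3* were at most 9.11% above CTRL. *Loxl4* was 48.0% and 44.7% higher from a low level, and *Loxl2* was at or near the floor of 3 fragments in all libraries.

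Lysyl hydroxylases act inside the cell, in the endoplasmic reticulum, where they use iron, 2-oxoglutarate and ascorbate to convert lysines of the nascent collagen chain to hydroxylysines. Hydroxylysine can carry sugars and gives rise to stable mature crosslinks. Lysyl oxidases act outside the cell. They carry copper and a quinone made from the side chains of a lysine and a tyrosine, and they oxidise lysines and hydroxylysines of collagen and elastin to aldehydes, which then react with neighbouring chains. The resulting crosslinks give tensile strength to connective tissue, and an excess of them stiffens fibrotic tissue and tumour stroma.

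The lysyl oxidases share a catalytic end of the protein in which a group of histidines, each separated from the next by a residue, holds the copper. This stretch is shown because it carries the activity that defines the family, although the transcripts of its members behaved differently. The coding sequence of 54 bases around it was read from GENCODE M21 (GRCm38). Capitals mark the codons of the 3 histidines, and each stretch crosses the junction of 2 exons, so that the coordinates include an intron. The stretches are at chr9:58293705-58294387 on the minus strand (*Loxl1*), chr14:69682310-69689052 on the plus strand (*Loxl2*), chr6:83049989-83050140 on the plus strand (*Loxl3*) and chr19:42598792-42599905 on the minus strand (*Loxl4*).
Loxl1: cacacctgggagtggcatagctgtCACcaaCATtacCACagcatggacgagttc
Loxl2: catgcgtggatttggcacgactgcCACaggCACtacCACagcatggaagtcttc
Loxl3: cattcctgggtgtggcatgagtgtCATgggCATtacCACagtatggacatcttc
Loxl4: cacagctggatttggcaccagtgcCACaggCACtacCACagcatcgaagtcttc
Compared with the same stretch of *Lox*, 50 of 54 bases were identical in *Loxl1*, 39 in *Loxl3*, 37 in *Loxl2* and 36 in *Loxl4*. The last 200 residues of the translated proteins were aligned in pairs, and identity was taken over aligned residues only, with gaps left out. *Lox* was 75% identical to *Loxl1* over 200 aligned residues and 51.1% to 56.7% identical to the others over 176 to 179. Those others were 66.5% to 70.2% identical among themselves. The closest relative of *Lox* by sequence, *Loxl1*, was thus not the oxidase with the next largest change, which was *Loxl4*.

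Among the lysyl hydroxylases, *Plod2* has an alternative exon of 63 bases, which adds 21 codons in frame. It is shown because *Plod2* occurs in a form with it and a form without it, and a value per gene sums both. It is exon 14 of 20 in the transcript that holds it, at chr9:92601985-92602047 on the plus strand (GRCm38).
Plod2 exon 14: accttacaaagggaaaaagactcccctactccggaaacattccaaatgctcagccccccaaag
The proteins of *Plod1*, *Plod2* and *Plod3*, aligned in pairs over their whole length, were 58.3% to 60.5% identical at the aligned residues.

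Values are FPKM, the number of fragments scaled to transcript length and to library depth, and can therefore be compared between genes. From the steps in which low FPKM rise, the depth was estimated at 16900000 fragments in CTRL, with 20000000 under GDF15 and 16200000 under TGF-β. A change is the difference of log2(FPKM + 1) between 2 libraries, which understates the change of low genes. A gene was called over 2-fold when its change was beyond 1. Since there is no replicate error, the changes of the 8 genes are set against a local spread. It is a robust standard deviation, the scaled median absolute deviation, of the changes among genes of like mean level, and its median over genes averaging 1 FPKM or more was 0.21 by GDF15 and 0.22 by TGF-β. All 8 of the fibroblast markers *Col1a1*, *Col1a2*, *Col3a1*, *Vim*, *Pdgfra*, *Pdgfrb*, *Thy1* and *Fn1* were at 34.7 FPKM or above in every library. Of these, *Fn1* had the largest change by GDF15 (0.64) and *Pdgfra* by TGF-β (-0.79). The 4 epithelial markers summed to 0.186 to 0.685 FPKM, with *Epcam* and *Cldn4* at 0 throughout, and the 4 endothelial markers to 0.252 to 0.329. The 4 immune markers summed to 1.32 to 1.85, most of it *Cd68*. Fewer cells of a type and less RNA per cell cannot be told apart in such libraries.

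*Lox* encodes the founding enzyme of its family, which is secreted as a proenzyme and oxidises both collagen and elastin. It was at 78.0 FPKM in CTRL, with 289 after GDF15 and 452 after TGF-β. The CTRL library was thus the lowest and the TGF-β library the highest. The change was 1.88 by GDF15, beside a local spread of 0.29, and 2.52 by TGF-β, beside 0.28. Measured from the local median, these are 6.93 and 9.33 local spreads. By size of increase *Lox* was number 6 of 9226 genes averaging 1 FPKM or more after GDF15 and number 8 after TGF-β. In the order of levels within a library it moved from number 635 of 15554 in CTRL to number 134 in GDF15 and number 79 in TGF-β. The values rest on an estimated 6258, 27392 and 34718 fragments, which gives a counting error of 0.020 (SE, log2 fold) in each comparison. This error covers counting only. The gene lies at chr18:52516067-52529867 on the minus strand (GENCODE M21), and its exons overlap a gene on the opposite strand over 30 bases.

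*Loxl1* encodes an enzyme known for its part in the renewal of elastic fibres. It was at 47.0 FPKM in CTRL, with 50.6 after GDF15 and 47.5 after TGF-β. These levels differed by 7.75% and 1.12% from CTRL, and the changes of 0.11 and 0.02 were smaller than the local spread of 0.21. In CTRL the level of *Lox* was 1.66 times that of *Loxl1*, and the ratio was 5.71 in GDF15 and 9.52 in TGF-β. The gene lies at chr9:58287738-58313186 on the minus strand.

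*Loxl3*, *Loxl4* and *Loxl2* form the branch of the family whose proteins carry scavenger receptor domains ahead of the catalytic end. *Loxl3* was at 16.4 FPKM in CTRL, with 17.9 after GDF15 and 16.9 after TGF-β, and its changes of 0.12 and 0.04 were within the local spread of 0.24. The exons of *Loxl3* (chr6:83034173-83052562, plus strand) overlap those of *Htra2* on the opposite strand over 535 bases. *Htra2* was at 22.7, 21.2 and 23.1 FPKM in the same order, and whether strand was used in counting was not given in the sources used here. *Loxl4* (chr19:42593982-42612813, minus strand) was at 1.86 FPKM in CTRL, with 2.75 after GDF15 and 2.69 after TGF-β. Both stimulated libraries were above CTRL and close to each other. The change was 0.39 by GDF15 beside a local spread of 0.20, and 0.37 by TGF-β beside 0.26. At 117, 205 and 163 estimated fragments the counting error of the log2 fold was 0.17 (SE) in each comparison.

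*Loxl2* was listed at 0 in CTRL, at 0.0276 FPKM in GDF15 and at 0.0563 in TGF-β. These values are worth an estimated 0, 2.93 and 4.85 fragments. The FPKM that 3 fragments are worth, taken as the floor, was 0.0334, 0.0283 and 0.0348, so *Loxl2* was at or near the floor in all libraries and no fold is given. Of its 5267 windows of 50 bases, 2410 (45.8%) occurred in transcripts of other genes as well, read in the sense direction only. The other 7 genes of the families had no such window. The gene lies at chr14:69609068-69695834 on the plus strand.

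**Figure D1:**
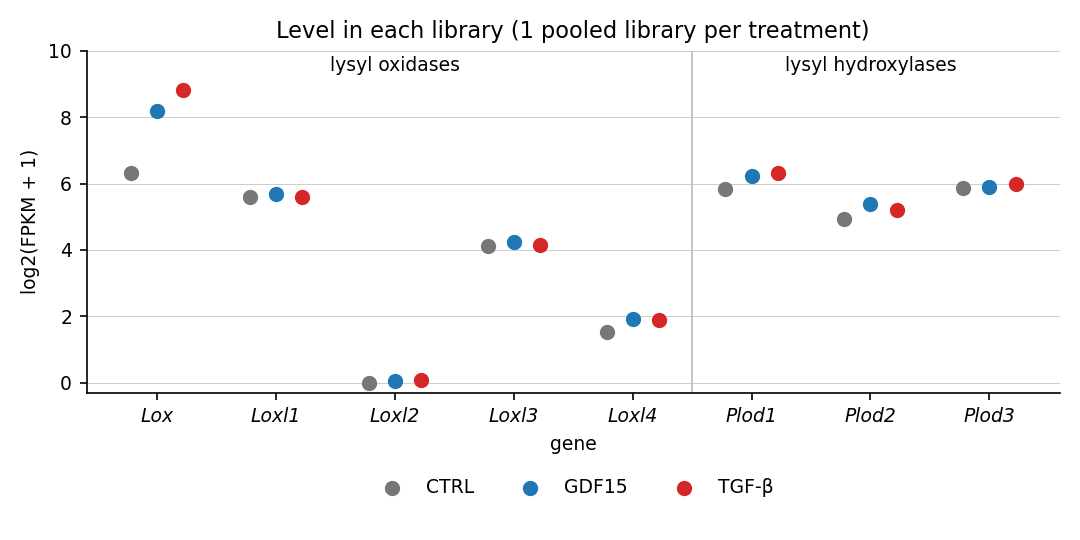
Levels of the 8 genes in the CTRL, GDF15 and TGF-β libraries, drawn as log2(FPKM + 1), with 1 point for each library and no error bars because there is 1 library per treatment. *Lox* moves from 78.0 to 289 and 452 FPKM, while *Loxl1* stays between 47.0 and 50.6.

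*Plod1* encodes lysyl hydroxylase 1, which acts mainly on lysines of the collagen triple helix. It was at 55.9 FPKM in CTRL, with 73.2 after GDF15 and 79.4 after TGF-β. Both stimulated libraries were above CTRL, by 30.8% and 42.0%. The changes were 0.38 and 0.50, with local spreads of 0.22 and 0.20. Measured from the local median, they were 2.10 and 2.94 local spreads. *Plod1* was under the 2-fold criterion, and by size of increase it was number 380 of the 9226 genes after GDF15 and number 311 after TGF-β. The gene lies at chr4:147909753-147936767 on the minus strand.

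*Plod2* encodes lysyl hydroxylase 2, which acts on lysines of the telopeptides, the ends of the collagen molecule where many crosslinks of fibrotic tissue start. It was at 29.7 FPKM in CTRL, with 40.4 after GDF15 and 36.1 after TGF-β. The GDF15 library was the highest, as for *Loxl1*, *Loxl3* and *Loxl4* and unlike for *Lox*, *Plod1* and *Plod3*. The change was 0.43 by GDF15 (35.9% higher) and 0.27 by TGF-β (21.7% higher), beside local spreads of 0.20 and 0.21. From the local median these are 2.37 and 1.54 local spreads. Once a trend fitted on transcript length and GC content was subtracted, these changes were 0.30 and 0.18. The direct difference, TGF-β minus GDF15, was -0.16, which is -0.947 local spreads from the local median. The gene lies at chr9:92542223-92608428 on the plus strand, and its exons overlap a gene on the opposite strand over 346 bases.

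*Plod3* encodes lysyl hydroxylase 3, which also adds sugars to hydroxylysine. It was at 56.9 FPKM in CTRL, with 58.5 after GDF15 and 61.9 after TGF-β. The changes of 0.04 and 0.12 were within the local spreads of 0.21 and 0.20. The exons of *Plod3* (chr5:136987019-136996648, plus strand) overlap those of *Znhit1* on the opposite strand, and *Znhit1* was at 26.8, 20.2 and 21.9 FPKM. In CTRL the levels of *Plod1* and *Plod3* were nearly equal, with a ratio of 0.982, and the ratio was 1.25 in GDF15 and 1.28 in TGF-β.

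Promoters were looked up in a set of RefSeq promoters (GRCm38.p6), in which the promoter of *Lox* was not searched. Entries were found for 3 of the 8 genes, *Plod1*, *Plod3* and *Loxl4*, which does not show that RefSeq lacks the others. The 250 bases before the start of *Plod1* and *Plod3* are shown because these genes were at the same level in CTRL and at different levels after stimulation. They lie at chr4:147936777-147937026 (minus strand) and chr5:136986769-136987018 (plus strand). Capitals mark matches, on either strand, to CAGAC, a sequence that SMAD proteins bind, to ACGTG, the core of the hypoxia response element, or to TATAAA, the TATA box.
Plod1: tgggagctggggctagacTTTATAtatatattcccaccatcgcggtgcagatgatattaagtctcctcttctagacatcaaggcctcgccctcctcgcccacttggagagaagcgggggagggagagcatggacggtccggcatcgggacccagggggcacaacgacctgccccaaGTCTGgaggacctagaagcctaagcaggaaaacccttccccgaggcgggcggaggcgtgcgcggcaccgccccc
Plod3: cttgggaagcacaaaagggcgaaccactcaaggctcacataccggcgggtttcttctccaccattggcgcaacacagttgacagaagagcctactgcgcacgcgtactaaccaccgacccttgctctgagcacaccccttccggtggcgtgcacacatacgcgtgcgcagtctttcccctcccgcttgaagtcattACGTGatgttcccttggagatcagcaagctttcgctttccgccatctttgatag
In the window from 250 bases before to 50 bases after the start, *Plod1* held 1 CAGAC and 1 TATAAA, *Plod3* held 1 ACGTG and *Loxl4* held 1 CAGAC. Among all 32851 promoters of this length, 49.6% held CAGAC, 19.6% held ACGTG and 13.6% held TATAAA. These matches describe letters and not binding sites.

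Among the families as a whole, 1 of 8 genes was over 2-fold higher after GDF15, and 0.212% of all genes of the table were. After TGF-β it was again 1 of 8, where 0.579% of all genes were. No member was over 2-fold lower, with 0.0772% of all genes lower by GDF15 and 0.334% by TGF-β. In the direct comparison no member was over 2-fold higher in TGF-β than in GDF15, and 0.0836% of all genes were. *Lox* came closest, with a difference of 0.64 or 1.56-fold, beside 0.12 for *Plod1* and 0.08 for *Plod3*. The *Lox* difference was 3.41 local spreads from the local median. Without *Lox*, the other 7 genes gave no call in any comparison. All members but *Loxl2* averaged 1 FPKM or more. For these 7 the median change was 0.38 (GDF15) and 0.27 (TGF-β), and each of the 7 was above 0. With the trend of length and GC content removed, the TGF-β median was 0.18. Over the 9226 genes with such a mean, the medians were -0.03 and -0.07, and 4097 and 3429 of them were above 0. Both comparisons use the same CTRL library, so their values are not independent.

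**Figure D2:**
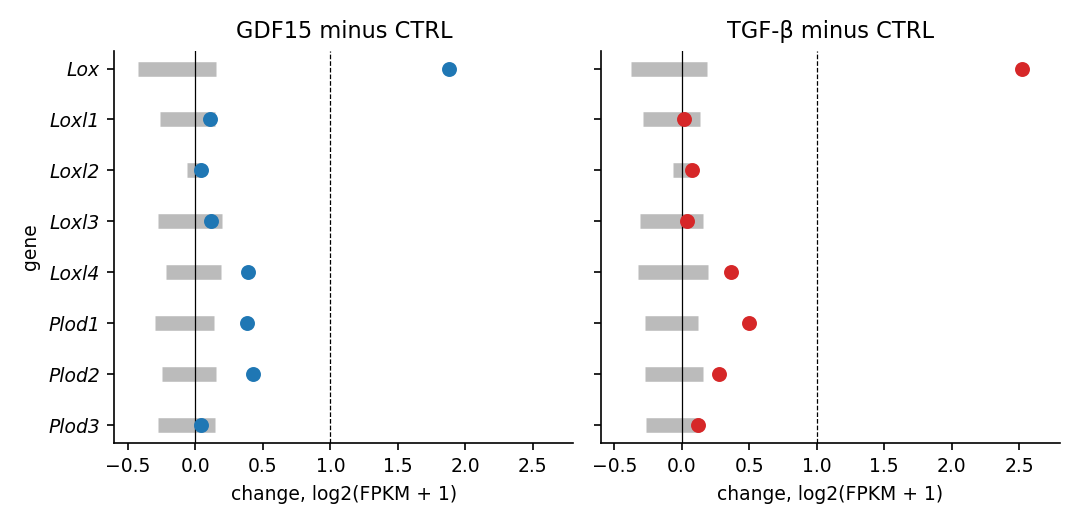
Change of each gene as the difference of log2(FPKM + 1), for GDF15 and for TGF-β against CTRL, with bars of 1 local spread around the local median that show the scatter of genes of like expression and are not replicate errors. *Lox* is at 1.88 and 2.52, beyond the 2-fold line at 1, and the other genes are at 0.50 or below.

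Because FPKM is per length, the members of a family can be added. The 5 lysyl oxidases summed to 143 FPKM in CTRL, 361 after GDF15 and 519 after TGF-β. The 3 lysyl hydroxylases were also at 143 in CTRL and were at 172 in GDF15 and 177 in TGF-β. The 2 families were thus equal in CTRL, with a ratio of oxidases to hydroxylases of 1.01, whereas the ratio was 2.10 in GDF15 and 2.93 in TGF-β. The share of *Lox* in the lysyl oxidase sum was 54.5% in CTRL and reached 80.2% with GDF15 and 87.1% with TGF-β. The share of *Loxl1* went from 32.8% to 14.0% and 9.15%, although its own level did not fall. Without *Lox*, the oxidases summed to 65.3, 71.3 and 67.1 FPKM. *Lox* supplied 211 of the 217 FPKM added after GDF15 and 374 of the 376 added after TGF-β.

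Among the hydroxylases the shares moved little. *Plod1* had 39.2% of the sum in CTRL, against 42.5% with GDF15 and 44.7% with TGF-β. *Plod3* had 39.9%, 34.0% and 34.9%, and *Plod2* had 20.8%, 23.5% and 20.4%.

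**Figure D3:**
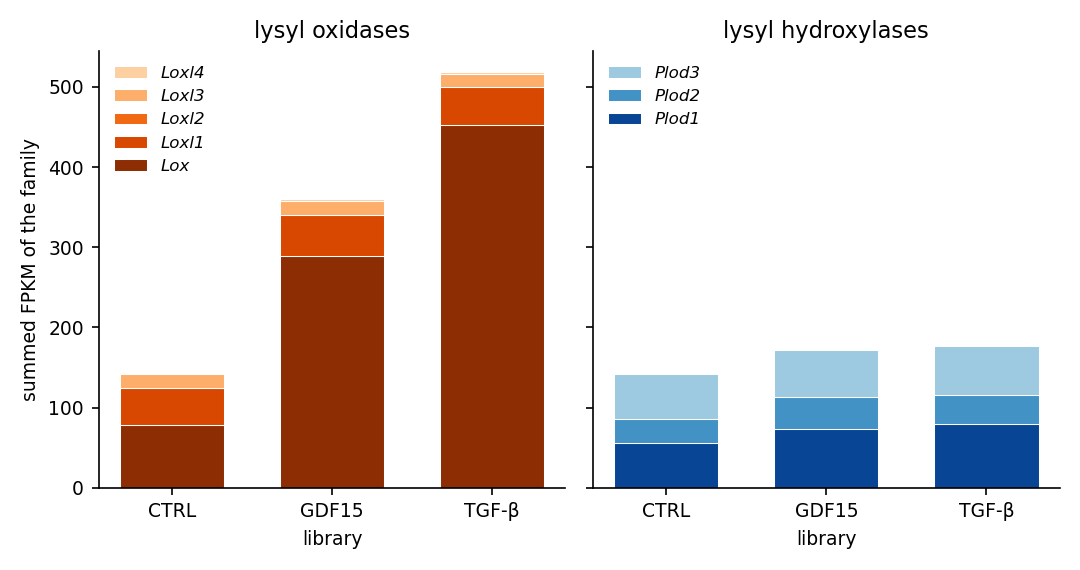
Summed FPKM of the lysyl oxidases and of the lysyl hydroxylases in each library, as stacked bars from 0 with 1 segment for each gene and no error bars. The oxidase bar grows from 143 to 361 and 519 FPKM through its *Lox* segment, and the hydroxylase bar goes from 143 to 172 and 177.

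The order of levels also differed between libraries. In CTRL it ran *Lox*, *Plod3*, *Plod1*, *Loxl1*, *Plod2*, *Loxl3*, *Loxl4* and *Loxl2*. *Lox* was 1.37 times *Plod3*, and *Plod3* and *Plod1* were within 1.02-fold. In GDF15 and in TGF-β, *Plod1* stood above *Plod3*, and *Lox* was 3.95 and 5.69 times *Plod1*. The lower end was the same in all 3 libraries, with *Loxl3* at 6.28 to 8.85 times *Loxl4*. Without replicates, neighbours as close as *Plod3* and *Plod1* in CTRL cannot be ordered with any confidence.

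Around the 8 genes, lists of the crosslinking pathway were counted, 52 genes of 55 listed. *Adamts3*, *Adamts14* and *Tnxb* were not analysed here. Over 2-fold higher were 3 after GDF15 and 7 after TGF-β, where 0.212% and 0.579% of all genes were, and none was over 2-fold lower. The count after GDF15 was 6 without a pseudocount and 5 with the running median by expression removed. The median of the 39 genes averaging 1 FPKM or more was 0.27 and 0.32. Of the 7, 4 were crosslinked substrates, 2 were matrix partners and 1 was a prolyl hydroxylase, while the lists for copper supply, procollagen proteolysis and glycosylation gave no call.

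Of 7 crosslinked substrates, 1 was over 2-fold higher after GDF15 and 4 after TGF-β. All 7 were above CTRL after GDF15 and 6 after TGF-β, where 4097 and 3429 of the 9226 genes averaging 1 FPKM or more were, with medians of 0.62 and 1.004. *Col11a1*, a minor fibrillar collagen, was at 3.72, 16.5 and 31.0 FPKM in CTRL, GDF15 and TGF-β and was the gene called in both (1.89 and 2.76). *Eln*, which encodes the elastin precursor, was at 1.79, 4.53 and 15.8 FPKM. Its change was 0.99 by GDF15, just under the criterion, and 2.59 by TGF-β, and it was the gene of these lists over 2-fold higher in TGF-β than in GDF15. With the trend of length and GC content removed, the *Eln* change by GDF15 was 1.03, and without a pseudocount it was 1.34. With the running median by expression removed, *Eln* and *Col5a2* (1.03) also passed the criterion after GDF15, which makes 3 of 7. *Col5a1* (99.0, 153 and 200 FPKM) and *Col5a2* (283, 522 and 621 FPKM), chains of collagen V, changed by 1.004 and 1.13 after TGF-β. *Col5a1* passed the criterion only narrowly.

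Of 7 matrix partners of the lysyl oxidases, 2 were over 2-fold higher after each stimulus. Among the 6 averaging 1 FPKM or more, 5 were above CTRL after GDF15 and 4 after TGF-β. *Postn* is among these 6 only through the stimulated libraries. *Postn* encodes periostin, which promotes the proteolytic activation of lysyl oxidase. It was at 0.730 FPKM in CTRL, with 4.73 after GDF15 and 10.02 after TGF-β, with changes of 1.73 and 2.67, or 2.70 and 3.78 without a pseudocount. *Fbln5* encodes fibulin-5, which binds the *Loxl1* enzyme and elastin. It was at 17.6, 41.1 and 48.5 FPKM, with changes of 1.18 and 1.41. *Efemp2*, whose product fibulin-4 binds lysyl oxidase, and *Ltbp4* were not called in either comparison.

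Among 9 prolyl hydroxylases and their partners, 0 genes passed the criterion after GDF15 and 1 after TGF-β. *P4ha3*, a catalytic subunit of prolyl 4-hydroxylase, was at 7.42, 13.6 and 18.0 FPKM, with changes of 0.79 and 1.17. The widely expressed subunits *P4ha1* (52.8, 68.0 and 65.8 FPKM) and *P4ha2* (32.3, 40.5 and 49.3 FPKM) were not called. The medians of the list were 0.27 and 0.32.

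Of 9 genes for hydroxylysine glycosylation or with a product that works with lysyl hydroxylases, none was called. The largest changes were 0.59 by GDF15 for *Fkbp14*, a prolyl isomerase (7.72, 12.1 and 10.6 FPKM), and 0.52 by TGF-β for *Serpinh1*, which encodes the collagen chaperone HSP47 (265, 348 and 380 FPKM). *Fkbp10*, whose product assists lysyl hydroxylase 2, was at 73.0, 87.5 and 99.3 FPKM. The medians were 0.31 and 0.36, and those of the 3 lysyl hydroxylases were 0.38 and 0.27.

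No gene was called among 6 procollagen proteases and their enhancers or among 6 genes of copper supply. *Bmp1*, which releases the active enzyme from pro-lysyl oxidase, was at 76.0 FPKM in CTRL, with 67.4 after GDF15 and 59.0 after TGF-β, with changes of -0.17 and -0.36. The copper chaperone *Atox1* was at 382, 221 and 250 FPKM, with changes of -0.79 and -0.61. Its longest coding transcript has only 541 bases, and with the trend of length and GC content removed its changes were -0.36 and -0.40. *Atp7a*, the pump that loads lysyl oxidase with copper, was at 8.49, 10.3 and 8.27 FPKM.

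Neither the transglutaminases, which crosslink proteins by another chemistry, nor the other copper amine oxidases gave a call. *Tgm2*, a transglutaminase, was at 7.13, 11.0 and 13.2 FPKM (0.57 and 0.80), and the amine oxidase *Aoc2* was at 2.31, 1.80 and 2.31. Because *Lox* and *Plod2* are also known as hypoxia response genes, 12 others of that response were counted. None was over 2-fold higher. The medians were 0.10 and 0.22, and 8 of the 12 were above CTRL after GDF15 and 10 after TGF-β. Of the 9226 genes averaging 1 FPKM or more, 4097 and 3429 were above CTRL, with medians of -0.03 and -0.07. Among the 12, *Car9*, a carbonic anhydrase, was the gene over 2-fold lower after TGF-β, at 4.44, 2.87 and 1.66 FPKM. Its change was -1.03, which was -0.98 with the trend of length and GC content removed.

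**Figure D4:**
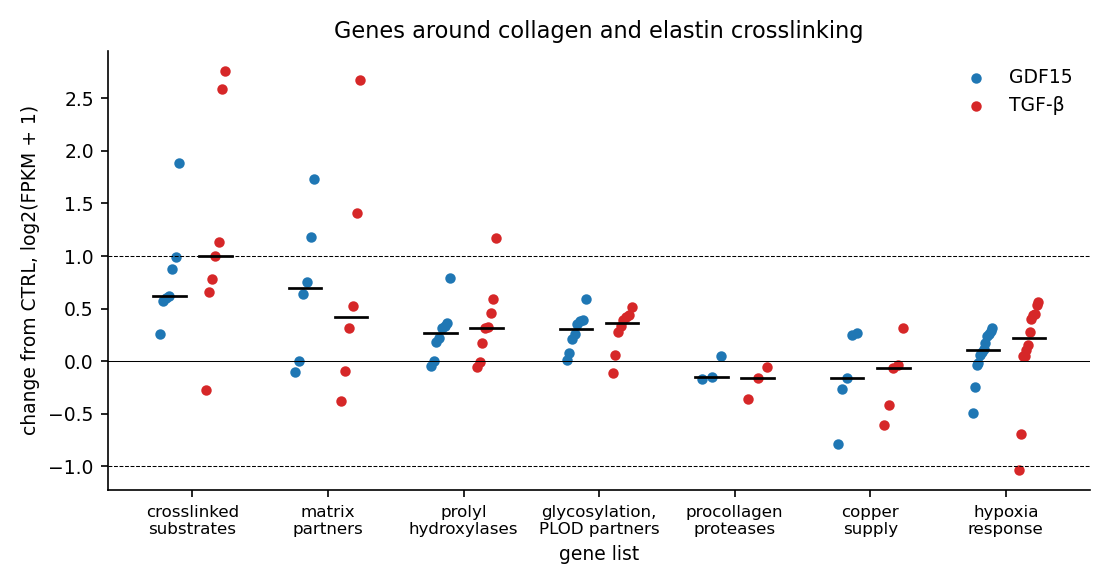
Change of log2(FPKM + 1) of the genes in each pathway list, for GDF15 and for TGF-β against CTRL, with 1 point for each gene averaging 1 FPKM or more and the 2-fold lines at -1 and 1. Points beyond the upper line are in the lists of substrates, matrix partners and prolyl hydroxylases, and horizontal bars are the medians of the lists.

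The genes whose pair of changes was nearest to that of *Lox* were found by Euclidean distance in the plane of the changes by GDF15 and TGF-β, over 3 libraries. On the log2(FPKM + 1) scale *Ccdc80* was the nearest (distance 0.14), at 11.5, 40.9 and 73.3 FPKM. *Aspn*, which encodes the collagen-binding proteoglycan asporin, was at 1.29, 7.70 and 10.5 FPKM (0.20), and *Postn*, which averaged over 1 FPKM only through the stimulated libraries, was at a distance of 0.21. *Col8a1*, a short-chain collagen, was at 9.60, 33.8 and 54.0 FPKM (0.22). *Mfap4*, a microfibril-associated glycoprotein, was at 0.0816, 3.43 and 4.53 FPKM. Its CTRL value was under the floor of 3 fragments and it averaged over 1 FPKM only through the stimulated libraries, so its place beside *Lox* is set by the pseudocount. Without a pseudocount, which was tried for these distances after seeing the data, the nearest were *Myo7a* (0.036), *Col8a1* (0.086), *Tagln* (0.12), *Ccdc80* (0.15) and *Acta2* (0.30), so that 2 of the 5 genes above were still among them. It was also 2 with a pseudocount of 0.5 and with 0.1. Without a pseudocount *Aspn* was at 0.84 and *Postn* at 1.484. Of the 5 genes nearest on the log2(FPKM + 1) scale, *Col8a1* and *Ccdc80* came nearest to *Lox* in level. All 5 stayed below the *Lox* CTRL value of 78.0 FPKM in every library.

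**Figure D5:**
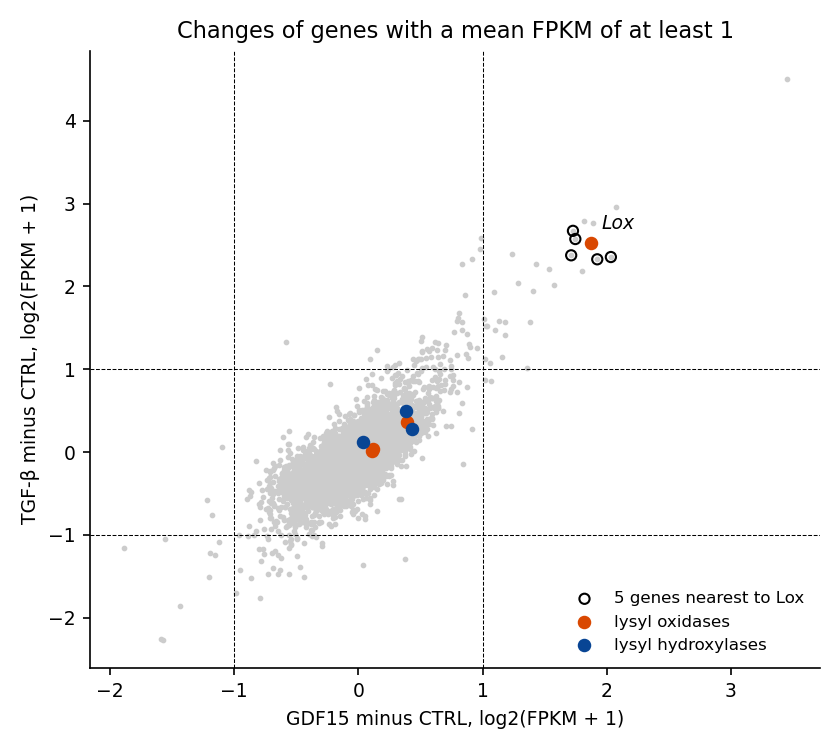
Change by GDF15 (x axis) and by TGF-β (y axis) of log2(FPKM + 1), for 7 of the 8 genes (all but *Loxl2*), the 5 genes nearest to *Lox* and all genes averaging 1 FPKM or more. *Lox* lies at 1.88 and 2.52, apart from the other members, which lie at 0.50 or below on both axes. The axes share the CTRL library.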

How the data were processed

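RNA-seq values were deposited for 3 libraries of NIH3T3 fibroblasts, CTRL, GDF15 and TGF-β, 1 from each treatment and each made from pooled RNA. The cell line part of the column names counts upward across the table, and columns were matched to treatments by the treatment in each name. The authors sequenced stranded mRNA libraries in 50-base single-end mode, calculated FPKM with Cufflinks and kept protein coding genes. The submitters' processing notes name TopHat 1.3.2, Bowtie 0.12.9, Cufflinks 2.0.2 and the build mm10. The gene annotation is not given in the sources used here.

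The deposited FPKM were not rescaled. The change of a gene is the difference of log2(FPKM + 1), and over 2-fold means beyond 1, the fold criterion of the study. With 1 library per treatment no test was possible. Depth was estimated from the steps of low FPKM multiplied by transcript length, and numbers of fragments are estimates that cover counting error only, with 3 fragments as the floor. Transcript length, GC content, coordinates and coding sequence came from GENCODE M21 (GRCm38), to which 14725 rows were matched by symbol, 774 by an older symbol and 55 not at all.

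The members and the gene lists were chosen with earlier results of these data known. Named genes are the 8 members, from each list every gene over 2-fold and the gene with the largest change in each comparison, and the 5 genes nearest to *Lox*, among genes averaging 1 FPKM or more. *P4ha1*, *P4ha2*, *Fkbp10*, *Atp7a*, *Efemp2* and *Ltbp4* were named for their known role after values were seen. The study itself named *Lox*, *Postn*, *Col11a1*, *Aspn*, *Ccdc80*, *Col8a1* and *Mfap4* from these libraries. For its extracellular matrix genes, these among them, it also reported increases by quantitative RT-PCR on unpooled RNA samples, rising with the dose of GDF15. It further named *Acta2* as enhanced by GDF15.

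Alternatives were pseudocounts of 0.5 and 0.1, no pseudocount, a filter at 1 FPKM on average, scaling by the upper quartile or by the median, and subtraction of the running median by expression or of a trend fitted on length and GC content. The software was Python 3.11.15, Biopython 1.88, pandas 2.3.3, numpy 2.4.6, matplotlib 3.10.9 and scipy 1.17.1.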

Additional observations from a re-analysis of the deposited data

How the results depend on the processing

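No paired analysis was possible because there is 1 library per treatment, which also means that none could be left out. Of 186 values of the members under 8 alternatives, 181 stayed within the local spread of the reported value, 5 moved by more and 0 reversed a call. The 5 are values of *Loxl2*, which is at or near the floor. Only *Lox* had a call that could reverse, and the filter at 1 FPKM on average leaves each change as it is. Small changes did cross 0, with *Loxl2* by GDF15 from -0.02 to 0.35 and *Loxl4* between the stimuli from -0.03 to 0.03. *Lox* ranged from 1.73 to 2.01 by GDF15, from 2.41 to 2.62 by TGF-β and from 0.58 to 0.69 between the stimuli. The other 7 genes gave no call under the alternatives that gave them a value, and *Loxl2* has none without a pseudocount or with the minimum mean FPKM of 1. The changes of *Plod1* ranged from 0.38 to 0.46 and from 0.50 to 0.58, and those of *Plod2* from 0.30 to 0.49 and from 0.18 to 0.36. Under each scaling and trend removal, 7 of 7 members stayed above 0, and the median of all expressed genes moved by less than 0.1.

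Counts depended on the pseudocount. Genes over 2-fold higher by GDF15 were 139 with a pseudocount of 0.1 and 252 with none, and genes lower were 26 with 0.5, 176 with 0.1 and 337 with none. By TGF-β, genes higher were 243 with 0.1 and 417 with none, and genes lower were 80 with 0.5, 246 with 0.1 and 372 with none. Pathway genes higher by GDF15 were 6 without a pseudocount and 5 with the running median removed, and pathway genes lower by TGF-β were 2 without a pseudocount.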
